A study of Mus musculus with 4 samples.

Results

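TRBV31, known in the older nomenclature as Vβ14, is the one mouse T-cell receptor β (TRB) V segment that lies downstream of the constant regions and joins by inversion. Its members here were the listed TRB clonotypes whose best V hit was TRBV31, counting as 1 clonotype each distinct CDR3 nucleotide sequence together with the V and J called for it. There were 7714 in-frame TRBV31 clonotypes of 238470 in-frame clonotypes in all. A further 2933 TRBV31 clonotypes of 22386 were out of frame, and 62 carried a stop codon in frame, which made 10709 of 261962 clonotypes in any frame.

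The libraries were made from the total RNA of CD8+ T cells (DAPI-, CD45+, CD3+) sorted from mouse livers with metastases of the colon adenocarcinoma line MC38 (tumours that the labels call melanomas). Vsig4-deficient mice (Vsig4-/-) were compared with wild-type mice 14 days after the tumour cells were injected, with 2 libraries per genotype, named here Vsig4-deficient 1 and 2 and wild-type 1 and 2. Vsig4 encodes a complement receptor of Kupffer cells, the macrophages that reside in the liver, and its transcripts were not measured in these libraries. Separate animals are not stated for the libraries, and the p-values therefore measure the spread between these samples alone, which may be technical.

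In the TRB locus most V segments lie upstream of both D-J-C clusters and point the same way, and their rearrangement deletes the DNA in between. Trbv31 points the other way, so its joining to a D-J unit turns the intervening DNA round and keeps it in the chromosome. The CDR3 is the loop encoded across the V-D-J joint, where bases are trimmed from the segment ends and others are added without a template. An in-frame joint can give a receptor chain that is tested during selection in the thymus. An out-of-frame joint gives none, and a T cell that carries one needs another joint, in frame, for its β chain.

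In RefSeq's annotation of GRCm38.p6, of the same assembly family as mm10, Trbv31 lies on chromosome 6 at positions 41557693 to 41558371. It starts 9512 bases after the end of Trbc2, the second constant region, and 13837 bases after the end of Trbj2-7, the last J segment. On the other side of the clusters, 251211 bases separate the end of Trbv30 from the start of Trbd1. Trbd1 lies with the Trbj1 segments and Trbd2 with the Trbj2 segments, in the order Trbd1, Trbj1, Trbc1, Trbd2, Trbj2, Trbc2.

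The sequences below show how a TRBV31 joint is built, 5′ to 3′, with the bases listed to neither V nor J in capitals (in the second line, the bases that most often follow the listed V end). They are the listed V end, that end read on, the largest in-frame joint of each library, the largest joint of 3 amino acid sequences found in all libraries, 1 with no added base and the largest joint out of frame. All belong to chromosome 6.
listed V end: tgtgcctggagtc
V end read on by 2 bases: tgtgcctggagtcTA
largest in Vsig4-deficient 1, TRBJ2-4: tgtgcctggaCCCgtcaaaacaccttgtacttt
largest in Vsig4-deficient 2, TRBJ2-3: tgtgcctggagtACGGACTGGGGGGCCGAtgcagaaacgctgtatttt
largest in wild-type 1, TRBJ2-1: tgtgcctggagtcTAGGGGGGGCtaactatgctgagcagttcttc
largest in wild-type 2, TRBJ1-3: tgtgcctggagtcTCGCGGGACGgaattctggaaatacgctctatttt
of a shared amino acid sequence, TRBJ2-1: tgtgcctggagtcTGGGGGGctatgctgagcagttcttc
of a shared amino acid sequence, TRBJ2-5: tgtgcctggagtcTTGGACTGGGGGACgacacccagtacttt
of a shared amino acid sequence, TRBJ2-7: tgtgcctggagtcTAGGGgaacagtacttc
no added base, TRBJ2-4: tgtgcctggagtcaaaacaccttgtacttt
largest out of frame, TRBJ2-1: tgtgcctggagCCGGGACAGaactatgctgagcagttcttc

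The start of the CDR3 is encoded by the V end itself, so it describes the V hit and is no independent test of it. The residues CAW opened 94.8% and 94.8% of in-frame TRBV31 clonotypes in the Vsig4-deficient libraries, against 95.1% and 93.7% in the wild-type libraries. Among all other V segments the same start was found in 0.0066% and 0.00737% of clonotypes in the Vsig4-deficient libraries and in 0.00434% and 0.00561% in the wild-type libraries. Of the in-frame TRBV31 clonotypes, 40.9% and 38.9% in the Vsig4-deficient libraries, and 36.6% and 38.6% in the wild-type ones went on to CAWSL. Out of frame, where no protein is made, the first 5 codons read CAWSL in 36.2% and 35.5% of clonotypes in the Vsig4-deficient libraries, and in 40.5% and 38.4% in the wild-type ones.

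The libraries held 1000179 and 1269480 counts in Vsig4-deficient 1 and 2 and 916335 and 901567 counts in wild-type 1 and 2. Whether a count is a read or a molecule is not stated, and fewer cells and less RNA per cell cannot be told apart. The same clonotypes were listed in several libraries, and carry-over of RNA or reads between libraries and clones present in both cannot be told apart. Of the 20 largest of Vsig4-deficient 1, with any V, 20 were listed with the same nucleotides in Vsig4-deficient 2, at a median of 2.08% of their count in Vsig4-deficient 1, and at medians of 0.0248% and 0.0113% in wild-type 1 and 2. Of the 20 largest of wild-type 2, 20 were listed in wild-type 1 at a median of 0.898%. Across genotypes, 14 of those 20 were listed in Vsig4-deficient 1 and 19 in Vsig4-deficient 2, at medians of 0.0987% and 0.288%. Of the 20 largest TRBV31 clonotypes of Vsig4-deficient 1, 18 were listed in Vsig4-deficient 2, at a median of 1.34%. For that reason every test below was also run without clonotypes that held under 5% of their share in another library, a rule added after the data were seen that left out 25, 206, 71 and 41 in-frame TRBV31 clonotypes of Vsig4-deficient 1 and 2 and wild-type 1 and 2. The rule changed the call in 1 test, that of the share of clonotypes listed in another library, and its value there is given with that result.

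TRBV31 took a middling place among the in-frame clonotypes and had the highest mean share among those out of frame. It made up 3.26% and 3.26% of in-frame clonotypes in Vsig4-deficient 1 and 2, against 3.13% and 3.27% in wild-type 1 and 2, and ranked 13 of 23 V segments with at least 10 clonotypes in every library. The 95% Wilson intervals, which cover counting error alone, ran from 3.10% to 3.42% and 3.13% to 3.39% in Vsig4-deficient 1 and 2, and from 2.98% to 3.29% and 3.14% to 3.40% in wild-type 1 and 2. TRBV13-2, a Vβ8 segment, ranked first with a mean of 12.9%, and TRBV1, the V segment farthest upstream, averaged 7.10%. Out of frame, TRBV31 made up 12.1% and 16% of clonotypes in the Vsig4-deficient libraries, against 11.8% and 12.8% in the wild-type libraries. Its mean of 13.1% was the highest of 22 segments, followed by TRBV13-2 with 12.8%, and the ranges of both over the libraries overlapped. TRBV13-2 was above TRBV31 in Vsig4-deficient 1 (12.4%) and wild-type 2 (12.9%), and below it in Vsig4-deficient 2 (14.3%) and wild-type 1 (11.6%).

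Seen from the segment itself, TRBV31 had a far larger part of its listed clonotypes out of frame than most V segments. The clonotypes were read from RNA, and the share of out-of-frame joints in the DNA was not measured. The out-of-frame share of TRBV31 clonotypes was 28.1% and 25.5% in Vsig4-deficient 1 and 2 and 27.3% and 28.7% in wild-type 1 and 2. Over all other V segments it was 8.77% and 5.73% in the Vsig4-deficient libraries, and 8.34% and 8.56% in the wild-type ones. No TRBV31 value overlapped those of the other segments pooled. The ratio of out-of-frame to in-frame clonotypes in TRBV31 was 4.06-fold that over all V segments (log2 2.02 ± 0.05, SE, 4 libraries, edgeR quasi-likelihood adjusted p = 1.43e-47). Calls were common in that comparison: 62.5% of 24 segments passed an adjusted p of 0.05, and 33.3% passed as higher and 29.2% as lower. TRBV31 had rank 4 in it, below TRBV24 (log2 4.91), which had too few clonotypes for the percentages given here, TRBV22 and TRBV21.

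TRBV22, which RefSeq lists as a pseudogene, had a mean of 69.4% of its clonotypes out of frame, and TRBV21 had 47.6%. After TRBV31 came TRBV23 with 15.6% and TRBV4 with 15.3%. TRBV1 had 10.2% and TRBV13-2 had 8.59%, and TRBV14 had the lowest mean with 4.02%. Of the 3 Vβ8 segments, 0 passed as higher and 1 as lower, with a median log2 of -0.11. Of the 2 Vβ5 segments, TRBV12-1 and TRBV12-2, 0 passed as higher and 2 as lower, with a median log2 of -0.93, against -0.03 over all segments tested. RefSeq lists Trbv31 as a V segment and not as a pseudogene.

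**Figure D1:**
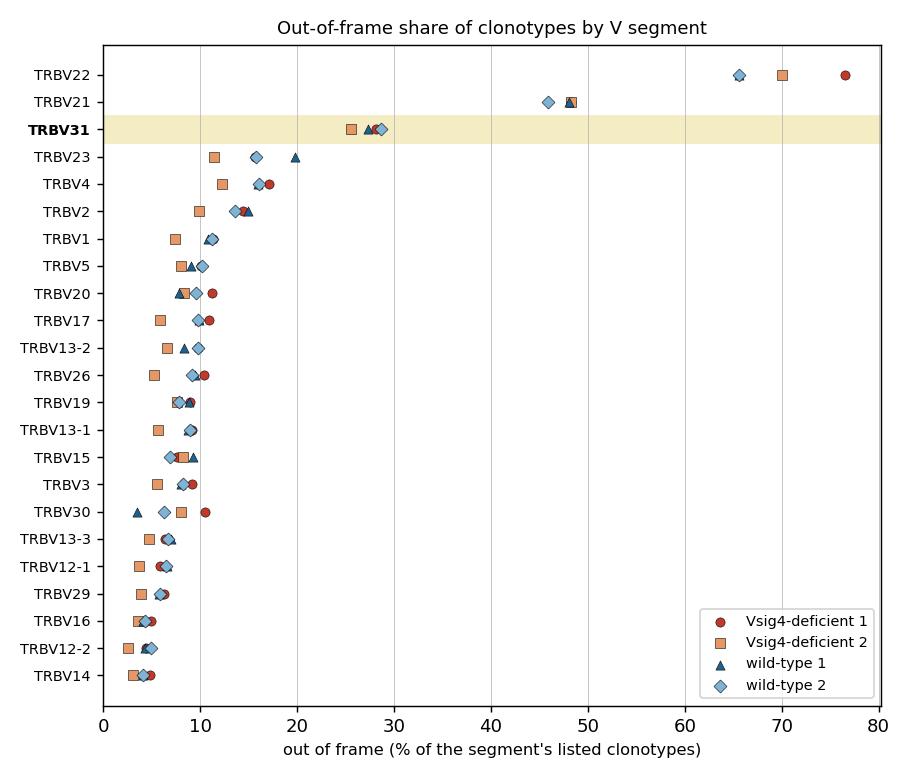
Share of each V segment's listed clonotypes that was out of frame (x axis, percent), for 23 V segments (y axis), with 1 point for each of the 4 libraries and TRBV31 shaded. The TRBV31 points sit between 25.5% and 28.7%, below TRBV22 and TRBV21 and above the other 20 segments.

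The out-of-frame share was close to the same without clonotypes of 1 count. Among clonotypes with 2 or more counts, the out-of-frame share of TRBV31 was 27.4% and 25.7% in the Vsig4-deficient libraries, and 26.7% and 28.5% in the wild-type ones. Over other V segments it was 8.16% and 5.21% in the Vsig4-deficient libraries, and 7.66% and 7.44% in the wild-type ones. Without out-of-frame sequences that were 1 base longer or shorter than an in-frame clonotype of 20 times their count, the log2 ratio was again 2.02. Among the out-of-frame TRBV31 clonotypes, 50.3%, 45.5%, 47.4% and 46.0% in Vsig4-deficient 1 and 2 and wild-type 1 and 2 were 1 base over a multiple of 3 in length, and the others were 2 over.

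By counts, TRBV31 held a larger part of the out-of-frame RNA than of the out-of-frame clonotypes. It held 21.8% and 18.0% of out-of-frame counts in the Vsig4-deficient libraries and 20.0% and 24.0% in the wild-type libraries. The median out-of-frame clonotype had 7 and 3 counts for TRBV31 in the Vsig4-deficient libraries and 8 and 7 in the wild-type libraries. For other V segments that median was 3 and 2 in the Vsig4-deficient libraries and 3 and 3 in the wild-type libraries. Of all TRBV31 counts, 11% and 19.3% were out of frame in the Vsig4-deficient libraries and 19.6% and 21.8% in the wild-type libraries, against 3.51%, 2.71%, 3.67% and 3.81% for other V segments in the same order of libraries. The value of Vsig4-deficient 1 was 19.1% without its largest in-frame TRBV31 clonotype, which brought the 4 libraries to between 19.1% and 21.8%. The largest out-of-frame clonotype, joined to TRBJ2-1 with TRBD1, had 2 and 2 counts in Vsig4-deficient 1 and 2, against 6 and 1640 counts in wild-type 1 and 2.

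TRBV31 was joined less often to the second J cluster than most other V segments. TRBJ2 segments made up 62.2% and 63.5% of in-frame TRBV31 clonotypes in the Vsig4-deficient libraries and 63.6% and 64.1% in the wild-type libraries. For all other V segments they made up 67.9% and 68.6% in the Vsig4-deficient libraries, and 69.5% and 68.9% in the wild-type ones. Each TRBV31 value lay below each value of the other segments pooled. Single segments overlapped with it, such as TRBV26 with 61.5% to 63.4%. The ratio of TRBJ2 to TRBJ1 joints was 0.794 of that in all V segments (log2 -0.33 ± 0.04, SE, 4 libraries, edgeR adjusted p = 2.60e-05). In that comparison 69.6% of 23 segments were called, 30.4% towards TRBJ1. TRBV31 ranked 21 of 23 by its TRBJ2 share. TRBV30 had the highest mean with 80.5% and TRBV21 the lowest with 59.8%, while TRBV1 had 65.4% and TRBV13-2 had 68.1%. Of the 3 Vβ8 segments, 0 were called higher and 2 lower, and of the 2 Vβ5 segments, 1 was called higher and 0 lower.

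The same tilt was present in joints that encode no chain. Among out-of-frame TRBV31 clonotypes, TRBJ2 made up 63.3% and 64.2% in the Vsig4-deficient libraries and 64.5% and 63.5% in the wild-type libraries. Other V segments had 70.1% and 69.3% out of frame in the Vsig4-deficient libraries and 72.8% and 70.9% in the wild-type libraries. The log2 ratio was -0.39 ± 0.05 (SE, edgeR adjusted p = 0.000288), and 33.3% of 24 segments were called, 12.5% in that direction. TRBV1 averaged 61.3% there and TRBV13-2 averaged 74.9%. Weighted by counts, the in-frame log2 ratio was the same at -0.33 but was no longer called (adjusted p = 0.360).

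**Figure D2:**
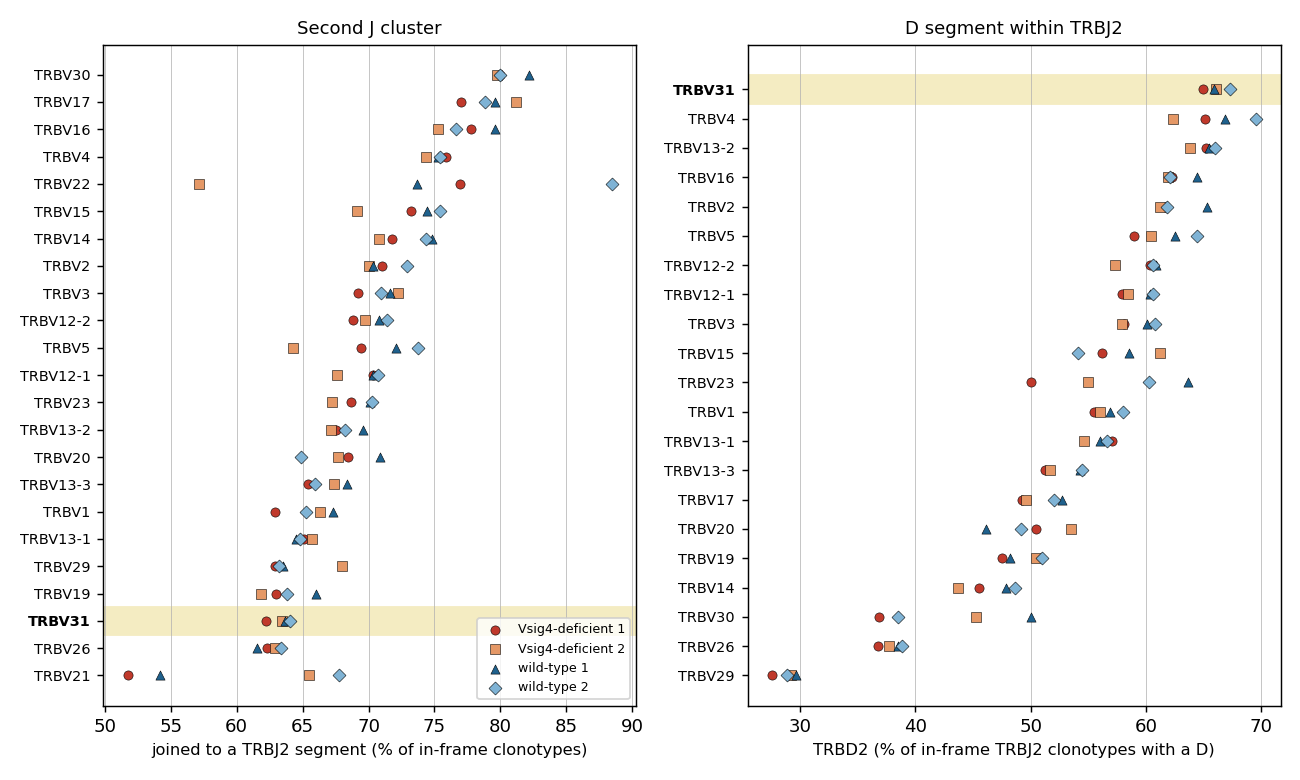
Left, the share of in-frame clonotypes joined to a TRBJ2 segment (x axis, percent); right, the share with TRBD2 among in-frame TRBJ2 clonotypes that have a D hit (x axis, percent), by V segment (y axes), with 1 point per library and TRBV31 shaded. TRBV31 lies near the bottom on the left, with 62.2% to 64.1%, and at the top on the right, with 65.0% to 67.3%.

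Of the 12 J segments, 7 were used at a different share by TRBV31 than by the other V segments pooled (58.3% called, with edgeR), 5 of them more (41.7%) and 2 less (16.7%). TRBJ1-5 had the largest ratio, with a mean of 3.41% ± 0.30 of in-frame TRBV31 clonotypes, against 2.48% ± 0.20 of the others (SD, 4 libraries), with a log2 ratio of 0.47 ± 0.12 (SE, edgeR adjusted p = 0.000466). TRBJ1-3 (log2 0.33), TRBJ1-2 (0.26), TRBJ1-1 (0.25) and TRBJ2-1 (0.14) were also higher. TRBJ1-1 made up 11.8% and 11.96% of TRBV31 clonotypes in the Vsig4-deficient libraries, and 11.3% and 10.4% in the wild-type ones, all above the 9.22% to 9.83% of the other V segments.

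TRBJ2-5 was lower, at 9.99% and 8.5% of TRBV31 clonotypes in the Vsig4-deficient libraries and 9.61% and 8.58% in the wild-type libraries. The other V segments had 12.05% and 12.2% in the Vsig4-deficient libraries, and 12.2% and 12.3% in the wild-type ones, which did not overlap with TRBV31 (log2 -0.43 ± 0.05, SE, edgeR adjusted p = 6.02e-09). TRBJ2-7 was lower as well, at a mean of 16.4% ± 1.24 for TRBV31 and 19.4% ± 0.63 for other V segments (SD, 4 libraries; log2 -0.24). TRBJ1-4, TRBJ1-6, TRBJ2-2, TRBJ2-3 and TRBJ2-4 were not called, with log2 ratios between -0.07 and 0.09. The tilt away from the second cluster thus lay in 2 of its segments, while TRBJ2-1 went the other way. With DESeq2, 4 of the 12 were called. Weighted by counts 0 were, and the TRBJ1-5 ratio changed sign to -0.19.

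**Figure D3:**
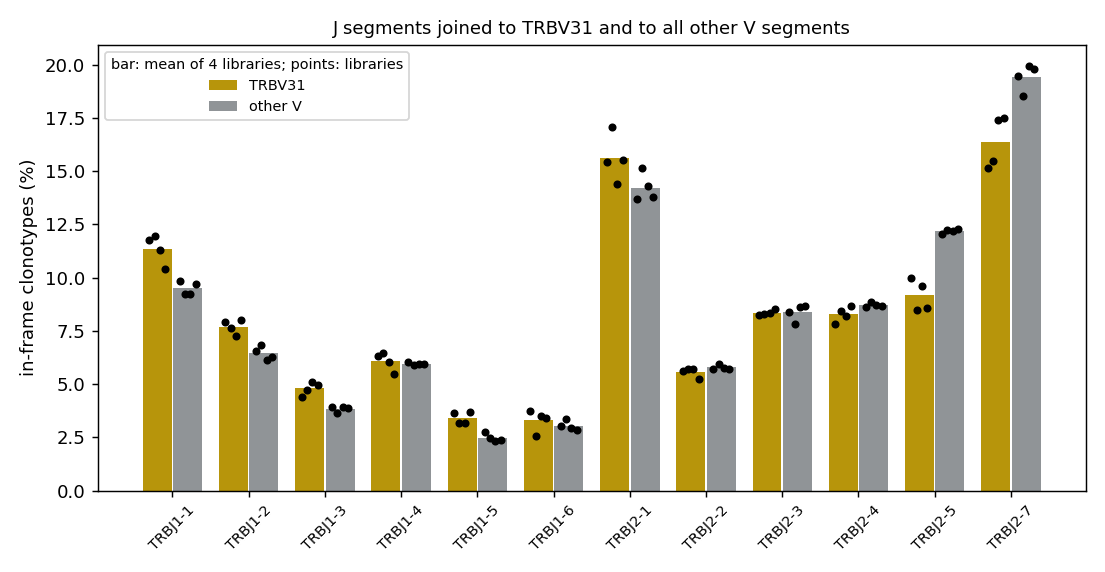
Share of in-frame clonotypes (y axis, percent) joined to each of the 12 TRBJ segments (x axis), for TRBV31 and for all other V segments; bars are means of the 4 libraries and points are the libraries. The TRBV31 bars are higher at TRBJ1-1, TRBJ1-2, TRBJ1-3, TRBJ1-5 and TRBJ2-1 and lower at TRBJ2-5 and TRBJ2-7.

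Within the TRBJ2 joints, TRBV31 carried TRBD2, the D segment of the second cluster, more often than other V segments did. TRBD2 was the best D hit in 65.0% and 66.1% of in-frame TRBV31-TRBJ2 clonotypes with a D hit in the Vsig4-deficient libraries and in 65.9% and 67.3% in the wild-type libraries. Other V segments had 55.0% and 54.7% in the Vsig4-deficient libraries, and 56.6% and 56.9% in the wild-type ones. The ratio of TRBD2 to TRBD1 was 1.53-fold that in all V segments (log2 0.62 ± 0.04, SE, 4 libraries, edgeR adjusted p = 7.77e-22). The mean of TRBV31, 66.1%, was the highest of 21 segments with enough such clonotypes, but TRBV4 with 65.9% and TRBV13-2 with 65.1% had ranges that overlapped with it. TRBV29 was lowest with 28.8%, and TRBV1 had 56.6%. In that comparison 78.3% of 23 segments were called, 39.1% towards TRBD2. Of the 3 Vβ8 segments, 1 was called higher and 1 lower, and both Vβ5 segments, 2 of 2, were called higher.

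D hits in so short a stretch are uncertain. Of the D hits of in-frame TRBV31 clonotypes, 16.2%, 16.3%, 17.2% and 16.4% were tied in Vsig4-deficient 1 and 2 and wild-type 1 and 2, and without the tied hits the log2 ratio was 0.69. TRBD2 lies downstream of every TRBJ1 segment, so a TRBD2 hit in a TRBJ1 joint gives a measure of wrong hits. Such hits made up 7.32% and 8.84% of in-frame TRBV31-TRBJ1 clonotypes with a D hit in the Vsig4-deficient libraries and 8.97% and 11.3% in the wild-type libraries. For other V segments the values were 6.45% and 6.97% in the Vsig4-deficient libraries, and 7.23% and 7.29% in the wild-type ones. Out of frame, TRBD2 was listed in 62.9% and 59.9% of TRBV31-TRBJ2 joints in the Vsig4-deficient libraries, and 67.8% and 66.8% in the wild-type ones, against 53.4%, 53.4%, 54.8% and 54.7% for other V segments in the same order. Weighted by counts, the in-frame log2 ratio was 0.54 and was not called (adjusted p = 0.363).

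CDR3 loops built on TRBV31 were slightly shorter than the rest. Their mean length was 13.69 and 13.73 amino acids in the Vsig4-deficient libraries, and 13.71 and 13.67 in the wild-type ones. Over other V segments it was 13.95 and 13.96 amino acids in the Vsig4-deficient libraries, and 13.95 and 13.93 in the wild-type ones. The difference was -0.25 ± 0.01 amino acids (SE, 4 libraries, limma adjusted p = 3.09e-05), and 78.3% of 23 segments differed from the others by that test, 43.5% being shorter. The means ran from 12.9 amino acids for TRBV30 to 14.7 for TRBV2, and TRBV31 ranked 18 of 23. TRBV1 averaged 14.4 and TRBV13-2 averaged 14.0 amino acids. Of the 3 Vβ8 segments, 1 was called longer and 2 shorter, and of the 2 Vβ5 segments, 0 were called longer and 0 shorter. Weighted by counts the difference was -0.50 amino acids and was not called (adjusted p = 0.179). The most frequent length was 14 amino acids for both sets. Short loops of 11 or fewer residues made up 9.34% and 8.37% of TRBV31 clonotypes in the Vsig4-deficient libraries, and 7.26% and 8.29% in the wild-type ones, against 5.46%, 5.27%, 5.51% and 5.64% for other V segments in the same order.

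With the V end as listed, the shorter loop was a shorter V part and a longer middle. An in-frame TRBV31 CDR3 took a mean of 11.97, 12.03, 11.95 and 11.95 bases from V in Vsig4-deficient 1 and 2 and wild-type 1 and 2, against 13.9 in each library for the others. The stretch between V and J was 10.3, 10.4, 10.5 and 10.4 bases for TRBV31, against 9.45, 9.44, 9.42 and 9.43 bases. The V end was also moved by 2 bases, as set out below. The middle of TRBV31 was then 9.87 and 9.98 bases in the Vsig4-deficient libraries, and 10.07 and 9.93 in the wild-type ones. The J part was 18.8, 18.7, 18.7 and 18.7 bases for TRBV31, against 18.5 bases in each library for the others. An untrimmed TRBV31 has 13 listed bases in the CDR3, tgtgcctggagtc, where other segments with at least 100 untrimmed clonotypes have between 14 and 17. That stretch read exactly so in 98.7% of 3856 untrimmed in-frame clonotypes. Untrimmed here means no V base removed and no palindromic bases (bases that mirror the segment end) read after it.

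As listed, TRBV31 lost few bases from its V end, but that depended on where the end was set. The mean number of V bases removed was 1.19 and 1.13 in the Vsig4-deficient libraries, and 1.22 and 1.20 in the wild-type ones, and for other V segments it was 2.55, 2.54, 2.54 and 2.58 in the same order. The difference was -1.37 ± 0.02 bases (SE, limma adjusted p = 7.08e-07), in a comparison that called 87% of 23 segments, 34.8% as less and 52.2% as more trimmed. TRBV4 was trimmed most, by a mean of 4.65 bases, and TRBV2 least, by 1.06 bases. No V base was removed in 56.9% and 56.9% of TRBV31 clonotypes in the Vsig4-deficient libraries, and in 54.1% and 56.8% in the wild-type ones, against 23.9% to 24.2% of the others.

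The base that followed the listed end was not evenly mixed. Of 5338 untrimmed TRBV31 clonotypes of any frame with a further base, 72.2% read T next, the highest share of a single base among 19 segments. Clonotypes with palindromic V bases were left out of these. In frame they made up 6.07% and 6.66% of TRBV31 clonotypes in the Vsig4-deficient libraries, and 6.05% and 6.38% in the wild-type ones. Other V segments had 13.9% to 14.1%, so the segments were ranked on unequally reduced sets. TRBV19 followed with G in 64.7%, and TRBV13-2 had G in 39.4%. In frame, the next pair read TA in 43.8% and 42.8% of untrimmed TRBV31 clonotypes in the Vsig4-deficient libraries, and in 41.6% and 40.2% in the wild-type ones, which gives the longer end tgtgcctggagtcTA. Out of frame the pair read TA in 39.7%, 36.9%, 47.4% and 39.7% in the same order.

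With the V end of TRBV31 moved by those 2 bases, a setting added after the data were seen, the mean number of bases removed was 2.57 and 2.53 in the Vsig4-deficient libraries, and 2.65 and 2.62 in the wild-type ones. The difference from other V segments, whose ends were not moved, became 0.04 ± 0.03 bases (SE, limma adjusted p = 0.198). That setting also read palindromic bases of TRBV31 as not of V, while the other V segments kept theirs. Out of frame the difference was -1.52 bases as listed (77.3% of 22 segments called) and -0.10 with the end moved. No genome sequence was used here, so where the germline segment ends was not tested.

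**Figure D4:**
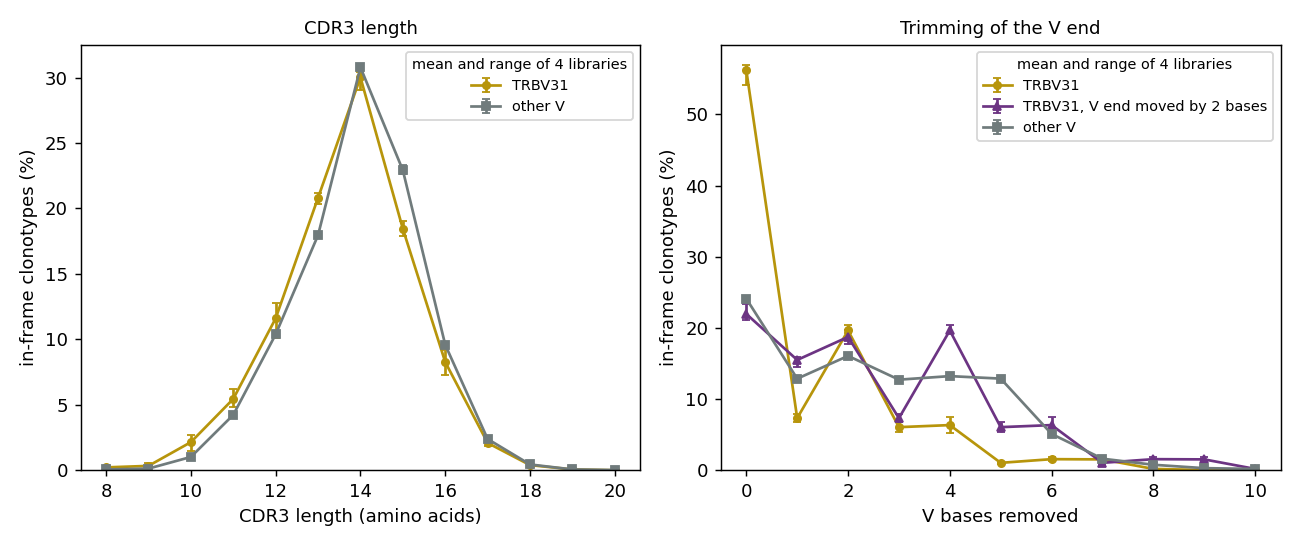
Left, the share of in-frame clonotypes (y axis, percent) by CDR3 length in amino acids (x axis); right, by the number of V bases removed (x axis), for TRBV31, for TRBV31 with its V end moved by 2 bases (right panel) and for all other V segments; points are means and bars the range of the 4 libraries. As listed, 54.1% to 56.9% of TRBV31 clonotypes lost no V base, far above the 23.9% to 24.2% of the others, and with the moved end 21.1% to 23.3% lost none.

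Bases assigned to no segment, in clonotypes with a D hit, were more numerous in TRBV31 than in the other segments, and with the V end as listed its mean was the highest of 23. They averaged 3.42 and 3.47 in the Vsig4-deficient libraries, and 3.42 and 3.34 in the wild-type ones, against 2.76, 2.75, 2.72 and 2.74 for other V segments in the same order. The difference was 0.67 ± 0.03 bases (SE, limma adjusted p = 6.13e-05), and 65.2% of 23 segments were called, 26.1% as higher. With the V end moved, the TRBV31 mean was 3.02 bases, below TRBV4 with 3.06 and TRBV19 with 3.03, and the difference was 0.27 bases. In that setting palindromic bases were read as V in the other segments but not in TRBV31. As listed and weighted by counts, the difference was 0.81 and was not called (adjusted p = 0.0701). TRBV20 had the fewest such bases with 2.47.

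In-frame TRBV31 clonotypes had more counts each than the average clonotype. The median was 10 and 3 counts in the Vsig4-deficient libraries, and 12 and 10 in the wild-type ones, against 5, 3, 6 and 6 for other V segments. Vsig4-deficient 2 was the library in which both medians were the same. The mean log2 count was 0.48 ± 0.09 above that of the other segments (SE, 4 libraries, limma adjusted p = 0.00279), higher in 4 of 4 libraries, by 0.63 and 0.20 in the Vsig4-deficient libraries, and 0.47 and 0.61 in the wild-type ones. In that comparison 91.3% of 23 segments were called, 30.4% as higher. TRBV31 ranked 6 of 23, and TRBV13-2 was highest and TRBV20 lowest. The out-of-frame medians given above were higher for TRBV31 too, although such clonotypes make no receptor chain.

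Among the larger clonotypes TRBV31 was about as frequent as among all in-frame clonotypes. Its share of all in-frame clonotypes was 3.26% and 3.26% in the Vsig4-deficient libraries, and 3.13% and 3.27% in the wild-type ones. Of the in-frame clonotypes above 0.01% of library counts, it made up 3.10% (14 of 452, 95% Wilson interval 1.85% to 5.13%) in Vsig4-deficient 1 and 2.49% (16 of 643, 1.54% to 4.00%) in Vsig4-deficient 2. In wild-type 1 it made up 3.47% (33 of 950, 2.48% to 4.84%) and in wild-type 2 it made up 3.23% (10 of 310, 1.76% to 5.84%). Above 0.1% there were 5 and 0 TRBV31 clonotypes in the Vsig4-deficient libraries and 1 and 1 in the wild-type libraries.

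The share of counts differed most between the Vsig4-deficient libraries themselves. TRBV31 held 7.56% and 2.49% of in-frame counts in Vsig4-deficient 1 and 2, and 3.75% and 4.29% in wild-type 1 and 2, so the Vsig4-deficient values lay on both sides of the wild-type ones. A single clonotype of 11 amino acids, the TRBJ2-4 joint printed above, which has no D hit and lost 3 V bases, had 34462 counts in Vsig4-deficient 1. That was 3.45% of the library (95% Wilson interval 3.41% to 3.48%) and 47.6% of its in-frame TRBV31 counts. The same nucleotide sequence had 831 counts in Vsig4-deficient 2, and 12 and 18 counts in wild-type 1 and 2. Without it TRBV31 held 4.11% and 2.43% of in-frame counts in the Vsig4-deficient libraries, and 3.75% and 4.29% in the wild-type ones.

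The next largest TRBV31 clonotypes of Vsig4-deficient 1 all carried TRBD1 and had lost no V base. They were joined to TRBJ1-2 (6653 counts), TRBJ2-2 (4368 counts), TRBJ2-1 (2260 counts) and TRBJ1-1 (1633 counts). Their counts in Vsig4-deficient 2 were 84, 56, 32 and 37 in that order, and none had more than 3 counts in a wild-type library.

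In Vsig4-deficient 2 the largest TRBV31 clonotype, with TRBD2 and TRBJ2-3, had 1180 counts and was listed in no other library. It was followed by joints to TRBJ2-1 with 965 counts, to TRBJ2-4 with 831 (the largest of Vsig4-deficient 1), to TRBJ2-5 with 789 and to TRBJ1-1 with 771. The TRBJ2-1 joint also had 3 counts in Vsig4-deficient 1, and 22 and 45 counts in wild-type 1 and 2.

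The 5 largest of wild-type 1 had 1095 counts with TRBJ2-1, 723 with TRBJ2-7, 695 with TRBJ1-2, and 501 and 424 with TRBJ1-3. Those of wild-type 2 had 1336 counts with TRBJ1-3, 307 with TRBJ2-1, 261 with TRBJ1-3, 155 with TRBJ2-5 and 138 with TRBJ2-4. Of these wild-type clonotypes, the TRBJ2-5 joint was the one listed in every library. The TRBJ2-4 joint of wild-type 2 links the full listed V end to J with no base in between.

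The 10 largest TRBV31 clonotypes held 70.5% and 22.1% of in-frame TRBV31 counts in the Vsig4-deficient libraries, against 13.4% and 7.41% in the wild-type libraries. The groups did not overlap, but the same share was not computed for other V segments. Whether the gap belongs to TRBV31 or to the libraries as a whole was not tested. The difference in means was 35.9 percentage points (exact permutation test, two-sided, p = 0.333, the smallest that 2 against 2 libraries allow). It was 11.7 points without Vsig4-deficient 1 and 60.1 points without Vsig4-deficient 2. Without the TRBJ2-4 clonotype of Vsig4-deficient 1 the shares were 44.2% and 20.5% in the Vsig4-deficient libraries, and 13.4% and 7.41% in the wild-type ones. The largest clonotype alone held 47.6% and 3.86% in the Vsig4-deficient libraries, and 3.33% and 3.63% in the wild-type ones.

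**Figure D5:**
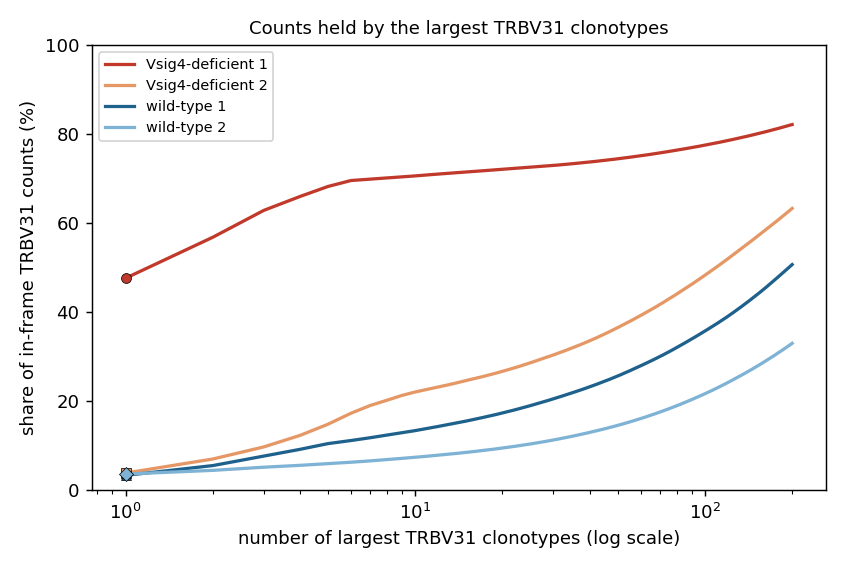
Share of in-frame TRBV31 counts (y axis, percent) held by the largest TRBV31 clonotypes, added up in order of size (x axis, number of clonotypes, log scale), with 1 line per library. The line of Vsig4-deficient 1 starts at 47.6% and the other 3 start between 3.33% and 3.86%, and at 10 clonotypes both Vsig4-deficient lines lie above both wild-type lines.

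No genotype difference in the use of TRBV31 was called. By in-frame clonotypes the log2 ratio of Vsig4-deficient to wild-type was 0.03 ± 0.08 (SE, 2 libraries each, edgeR adjusted p = 0.849), and 0% of 23 segments were called, with 0 at an unadjusted p under 0.05 and 0 called by DESeq2. By in-frame counts the log2 ratio was 0.32 ± 0.30 (SE, edgeR adjusted p = 0.548; 0% of 24 segments called, 4 at an unadjusted p under 0.05, and 1 called by DESeq2). Its direction rested on single libraries: it was -0.30 without the largest clonotype, -0.69 without Vsig4-deficient 1, and 0.91 without Vsig4-deficient 2. Each of the last 2 values rests on 1 Vsig4-deficient library, so only its size is given.

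By out-of-frame clonotypes the log2 ratio of Vsig4-deficient to wild-type was 0.19 ± 0.12 (SE, edgeR adjusted p = 0.915; 0% of 24 segments called, 0 at an unadjusted p under 0.05, 0 called by DESeq2). It was 0.37 without Vsig4-deficient 1 and -0.03 without Vsig4-deficient 2, each with 1 Vsig4-deficient library left. Vsig4-deficient 2 also had the lowest out-of-frame share over other V segments, 5.73%, and the highest share of 1-count clonotypes among those segments in frame, 33.1% against 17.8% to 21.4% in the other libraries. The part of these values in the result was not tested. Of the 12 pairings of TRBV31 with a J segment, 0 were called between the genotypes (0% of 259 V-J pairs, edgeR). Their log2 ratios ran from -0.16 to 0.18, 6 of 12 were above 0, and the median was 0.02 against -0.02 over all pairs. The lowest belonged to TRBJ2-7 (log2 -0.16 ± 0.11, SE, edgeR adjusted p = 0.666). That segment made up 15.2% and 15.5% of TRBV31 clonotypes in the Vsig4-deficient libraries, and 17.4% and 17.5% in the wild-type ones. For other V segments TRBJ2-7 was lower in the Vsig4-deficient libraries too, at 19.47% and 18.54%, against 19.95% and 19.79% in the wild-type ones. No smaller adjusted p was found among the 12, 0 of the 12 had an unadjusted p under 0.05, and DESeq2 called 0.

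As amino acid sequences with their J segment, 5315 in-frame TRBV31 clonotypes were listed in 1 library, 830 in 2, 103 in 3 and 31 in all 4. Those were 84.6%, 13.2%, 1.64% and 0.494% of the TRBV31 total, against 84.8%, 11.8%, 2.61% and 0.852% for the other V segments. Another library also listed 31.7% and 28.6% of the TRBV31 clonotypes of Vsig4-deficient 1 and 2, and 30.7% and 24.2% of those of wild-type 1 and 2, against 32.2%, 29.0%, 31% and 25.8% for other V segments. The difference, -0.72 ± 0.61 percentage points (SE, limma adjusted p = 0.282), was not called, in a comparison that called 91.3% of 23 segments. It was -4.15 points (limma adjusted p = 0.000192) without clonotypes under 5% of their share in another library, and -5.05 points (limma adjusted p = 9.48e-06) without clonotypes of 1 count. The 5% rule leaves out only clonotypes that another library lists, so it acts on the measured share itself. Leaving out clonotypes of 1 count removes listings as well. Neither value is separate support for a lower share in TRBV31. TRBV13-2 had the highest share listed elsewhere, a mean of 41.3%, TRBV1 had 37.3% and TRBV30 had the lowest, 1.15%.

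Vsig4-deficient 1 and 2 shared 332 TRBV31 amino acid clonotypes, wild-type 1 and 2 shared 280, and the pairs across genotypes shared between 102 and 261. Under the 5% rule the Vsig4-deficient pair shared 217, the wild-type pair 188 and the mixed pairs between 84 and 187. The mixed pair with the most, Vsig4-deficient 2 with wild-type 2, then came within 1 clonotype of the wild-type pair. That mixed pair joins the libraries with the most TRBV31 amino acid clonotypes. Before the rule there were 1475 and 2196 in Vsig4-deficient 1 and 2, and 1438 and 2299 in wild-type 1 and 2. The shared numbers were not scaled for library size, so they do not rank the pairs by likeness.

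The 31 sequences listed in all 4 libraries were short. Counting each nucleotide sequence in each library (182 in all), they averaged 12.5 amino acids and 7.69 bases between V and J, and 75.3% of them began CAWSL. Clonotypes listed in 1 library averaged 13.8 amino acids and 10.7 bases, and 35.2% began CAWSL. TRBJ2 was used by 76.4% of the shared joints and by 62.1% of those in 1 library. No test was made of these differences, and the same values were not computed for other V segments.

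By their lowest share in any library, the leading shared amino acid sequence had 13 residues and TRBJ2-1, with 94 and 196 counts in the Vsig4-deficient libraries against 97 and 57 in the wild-type libraries. It came from 8 different nucleotide sequences, of which the largest, printed above, had 62 and 150 counts in the Vsig4-deficient libraries against 0 and 34 in the wild-type libraries. The TRBJ2-5 sequence had 47 and 92 counts in the Vsig4-deficient libraries against 32 and 155 in the wild-type libraries, all from 1 nucleotide sequence with 14 bases between V and J. The TRBJ2-4 clonotype that led Vsig4-deficient 1 met the same rule, also from 1 nucleotide sequence. Its 12 and 18 wild-type counts are small beside 34462, as the counts there of that library's other large clonotypes are, and carry-over and a shared clone cannot be told apart. The TRBJ2-7 sequence of 10 residues had 61 and 16 counts in the Vsig4-deficient libraries against 80 and 128 in the wild-type libraries, from 8 nucleotide sequences, the largest of which was listed in all 4 libraries. A second TRBJ2-1 sequence, of 14 residues, had 30 and 26 counts in the Vsig4-deficient libraries against 23 and 10 in the wild-type libraries, from 5.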

How the data were processed

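CD8+ T cells from tumour-bearing livers gave 1 TRB table per library (2 Vsig4-deficient, 2 wild-type), grouped by the sample labels. Cells were sorted after digestion of the tissue and reverse-transcribed, per the labels' protocols. The deposited count per clonotype was a whole number with no normalization, per the file headers. The deposited fraction per clonotype was checked to be its count over the total of the table, and served nothing else. The deposited quality score, the minimum over the CDR3, lay between 25 and 37 and was not filtered on. The submitters' processing notes name mm10; the assembling program and its settings: not given in the sources used here.

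Segments were the first hit (V hits were tied for 2 TRBV31 clonotypes). In frame meant no shift and no stop codon. Trimming, inserted bases and V and J ends came from the deposited reference points. Clonotypes were counted per segment and class and tested with edgeR 4.0.16 (quasi-likelihood, offsets from column totals, at least 10 clonotypes or counts, library as a block within libraries). Means per V segment minus those of all others were tested with limma 3.58.1 (at least 10 clonotypes in every library). Benjamini-Hochberg adjustment ran over all segments, threshold 0.05. DESeq2 1.42.0 was an alternative. R 4.3.3, Python 3.11.15, pandas 2.3.3, SciPy 1.17.1 and matplotlib 3.10.9 were used. Both tests were tested on simulated data. Intervals on single shares are 95% Wilson intervals for counting error only, with totals of 901567 to 1269480 counts.

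TRBV31, the lists (Vβ8, Vβ5) and the tests were chosen with earlier results of these data known. The text names TRBV31, all J and D segments, TRBV1, TRBV13-2, the highest and lowest segment of each property, the 5 largest TRBV31 clonotypes per library and the 5 leading shared ones. Segments next in order and the largest out-of-frame clonotypes were named after their values were seen. Alternatives were TMM, DESeq2, no filter, blocks, 1-count clonotypes left out, 1% and 5% rules on shares in another library, joined sequences, weighting by counts, matching on J cluster, tied D hits, a moved V end and each library left out. The 5% rule, the crossed blocks, the tied D hits, the moved V end, the removal of near-identical out-of-frame sequences and the removal of the largest clonotype were added after the data were seen.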

Additional observations from a re-analysis of the deposited data

Results flagged for a closer look

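Clonotypes with a stop codon in frame lie outside the comparisons above. TRBV31 had 62 of them, 8 and 15 in Vsig4-deficient 1 and 2, with 12 and 27 in wild-type 1 and 2. They made up 0.374% and 0.486% of TRBV31 clonotypes in the Vsig4-deficient libraries and 0.582% and 0.789% in the wild-type ones, against 0.417% and 0.328% of other V clonotypes in the Vsig4-deficient libraries and 0.453% and 0.470% in the wild-type ones. TRBV31 lay above the other V segments in 3 of 4 libraries. Unlike the out-of-frame share, no difference in this share was tested.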

How the results depend on the processing

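Of 193 recomputed values of the comparisons, 177 kept their direction and their side of the threshold, or moved little. For single J segments, 124 of 156 did, 15 changed sign, 14 lost the call and 3 gained one. The causes of the exceptions below were not tested. Leaving out a library gave log2 ratios of genotype from -0.0061 to 0.057 by in-frame clonotypes, -0.69 to 0.91 by in-frame counts and -0.035 to 0.37 by out-of-frame clonotypes. Without the largest TRBV31 clonotype the ratio by counts was -0.30. Weighted by counts, the TRBJ2 ratio (-0.33), the TRBD2 ratio (0.54), CDR3 length (-0.50 amino acids) and inserted bases (0.81) kept their direction and missed the threshold, with adjusted p between 0.0701 and 0.363. The count of called J segments was 4 with DESeq2 and 0 by weight, against 7. Moving the V end gave 0.040 bases in frame and -0.097 out of frame. The sharing difference was -5.05 points without 1-count clonotypes and -4.15 under the 5% rule, settings that themselves remove listings. Leaving out a library gave differences of 11.7 to 60.1 points for the 10 largest clonotypes.

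Some single J segments changed sign, and among them TRBJ1-5 was a called one. TRBJ1-4 was -0.058 with TMM, -0.040 with DESeq2, -0.026 to 0.085 with a library left out, -0.020 without 1-count clonotypes and -0.59 by weight. TRBJ2-3 was -0.079 with TMM, -0.065 with DESeq2, -0.00067 with no library block, -0.030 to 0.015 with a library left out, -0.018 without 1-count clonotypes, -0.011 under the 5% rule and -0.19 by weight. By weight TRBJ1-5 was -0.19, TRBJ1-6 was -0.29 and TRBJ2-4 was 0.45.

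With the replicate number as a block, the genotype log2 ratio was 0.03 (adjusted p = 0.954) by in-frame clonotypes, 0.11 (adjusted p = 0.941) by counts and 0.18 (adjusted p = 0.978) by out-of-frame clonotypes. Same-numbered libraries deviated from their genotype means with correlations over segments of 0.155, -0.273 and 0.434 for these measures, and 2 pairs were too few to take the numbers as a pairing. With crossed numbers 0 V-J pairs of TRBV31 were called. The block changed no call on TRBV31. With 10 to 33 TRBV31 clonotypes above 0.01% of counts per library, the Wilson intervals on their shares overlapped between all libraries. These intervals cover counting error only, and a genotype difference in this share was not tested.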
